A study of Saccharomyces kudriavzevii and Saccharomyces cerevisiae and Kluyveromyces marxianus with 12 samples.

Results

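HSP104, HSP26 and HSP42 encode the cytosolic disaggregase and the pair of small heat shock proteins of budding yeast. The 3 genes were taken by their identifiers in *S. cerevisiae* (YLL026W, YBR072W and YDR171W), out of 6017 genes counted in that species, and 3 counterparts were taken out of 5549 genes counted in *S. kudriavzevii*. The rule that names them uses no measured value, although the genes were chosen with earlier results of these data known. HSP26 (SKDZ_02G1770) and HSP42 (SKDZ_04G3840) of *S. kudriavzevii* were given by identifier, and its HSP104 (SKDZ_12G0310) was found here by gene order and length: its coding sequence has 2727 bases in both species and the genes on both of its sides were paired as well. The *K. marxianus* counterparts were not analysed here, because its identifiers were not paired with names.

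Hsp104 is a hexameric AAA+ ATPase that threads polypeptides out of aggregates and condensates through its central pore, and it works with Hsp70 and J-proteins. Hsp26 and Hsp42 are ATP-independent chaperones that bind unfolding proteins and keep them in a form from which the Hsp70 and Hsp104 machinery can recover them. Hsp42 is known as the chaperone that organises peripheral protein deposits in *S. cerevisiae*, Hsp26 as an oligomer whose chaperone activity is switched on by heat, and Hsp104 also as the factor that fragments and propagates yeast prions. Heat-induced transcription of such genes is known to run through heat shock factor Hsf1, which binds heat shock elements (HSEs), and through Msn2 and Msn4, which bind stress response elements (STREs).

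The libraries are poly(A) RNA sequencing libraries of log-phase cultures in YPD, 2 biological replicates per group, after 8 min at the treatment temperature. *S. cerevisiae* BY4742, a haploid laboratory strain of mating type alpha with deletions at URA3, LEU2, LYS2 and HIS3, was held at 33 °C (control) or 40 °C (heat shock). *S. kudriavzevii* FM1389, a strain of mating type alpha derived from ZP591 in which kanMX replaces HO and URA3 and HIS3 are deleted, was held at 24 °C (control) or 31 °C (heat shock). The growth protocol in the labels names 34 °C for the growth of FM1389, whereas the labels of the control libraries give 24 °C. Each group is 1 strain, so strain, species, treatment temperature and the genome used for alignment cannot be told apart in any comparison between species.

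Library totals on coding sequences ran from 18911098 to 28644781 reads. In the 4 *S. cerevisiae* libraries URA3, LEU2 and LYS2 had 0 counts, which allows up to 3 counts per library, and HIS3, which is only partly deleted in this strain, had between 1633 and 3494. The alpha-specific MF(ALPHA)1 and STE3 had between 1519 and 42770 and between 620 and 7557 counts, whereas the a-specific MFA1 and MFA2 had 30 to 75 and 25 to 52. STE2, also a-specific, had 199 to 473 counts. In the 4 *S. kudriavzevii* libraries HO and HIS3 had 0 counts. URA3, given above as deleted, had 39 to 143, and the source of these reads was not tested. Levels are given below as TPM, transcript levels per length scaled to the same total in each library, which the authors computed from the counts and coding lengths. Fold changes and p-values are from edgeR's quasi-likelihood test on the counts, with Benjamini-Hochberg adjustment over all genes tested, and a gene was called at an adjusted p under 0.05.

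Stretches of the R64 genome upstream of the *S. cerevisiae* genes are shown first, because all 3 hold matches to the searched forms of both HSEs and STREs. HSE pairs were searched as TTCNNGAA and GAANNTTC, and STREs as AGGGG on either strand (CCCCT on the printed strand), in the 500 bases before each start codon. Each stretch begins 10 bases before the first match and ends 10 bases after the last, all 3 genes lie on the plus strand, and capitals mark the matches. HSP104 is at chrXII:88623-91349 with the stretch at chrXII:88311-88465, HSP26 is at chrII:382030-382674 with the stretch at chrII:381541-381718, and HSP42 is at chrIV:806621-807748 with the stretch at chrIV:806368-806453. Each gene interval is coding sequence that no other annotated gene overlaps.
HSP104: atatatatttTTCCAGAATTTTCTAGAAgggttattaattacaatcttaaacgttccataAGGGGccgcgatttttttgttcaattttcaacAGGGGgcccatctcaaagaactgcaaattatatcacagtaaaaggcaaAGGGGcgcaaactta
HSP26: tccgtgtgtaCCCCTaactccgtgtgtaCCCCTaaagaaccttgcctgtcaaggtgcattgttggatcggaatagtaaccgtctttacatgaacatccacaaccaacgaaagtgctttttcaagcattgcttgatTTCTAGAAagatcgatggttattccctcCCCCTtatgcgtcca
HSP42: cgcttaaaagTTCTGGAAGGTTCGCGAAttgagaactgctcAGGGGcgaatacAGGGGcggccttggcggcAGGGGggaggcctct

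HSP104 and HSP42 each hold a continuous run of HSE units: 2 matches to TTCNNGAA overlap 1 match to GAANNTTC, from -302 to -285 in HSP104 and from -243 to -226 in HSP42, counted from the first base of the start codon. HSP26 holds a single TTCNNGAA match, at -354 to -347. Each gene has 3 STRE matches, which begin at -252, -220 and -172 in HSP104, at -479, -461 and -326 in HSP26, and at -212, -200 and -182 in HSP42. The STREs of HSP104 and HSP42 therefore lie between the HSE run and the start codon and read AGGGG, whereas in HSP26 they flank the HSE pair and read CCCCT.

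Among 6000 promoters of the same length in the R64 annotation, 35.2% held either HSE pair, 34.1% held an STRE and 1.83% held at least 3 STREs. An HSE triple, in which a TTCNNGAA and a GAANNTTC share 3 letters, was present in 1.48%. Either HSE pair together with at least 3 STREs was found in 34 promoters, 0.567% of all, including the 3 described here. The motifs and the cutoff of 3 STREs match what each of the 3 genes holds, so their own place in this class is no result. Of the 34 genes with such promoters, 28 rose in the *S. cerevisiae* heat shock libraries and 3 fell, or 25 and 3 of the 31 other genes, where 33.7% of all genes tested were called higher and 32.7% lower. Genes with at least 3 STREs rose in 79 of 110 cases, and those with either HSE pair in 675 of 2050, or 32.9%. Genes with an HSE triple, which HSP104 and HSP42 hold, rose in 44 of 85 cases, or 51.8%, and fell in 22. Without the members 42 of 83 rose. In the 250 bases before the start codon the picture differed: HSP26 held no match to either motif, HSP104 held only STREs, and HSP42 held both. The 500-base length was chosen after the shorter one had been searched. These matches describe letters in the sequence and no binding was measured.

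**Figure D1:**
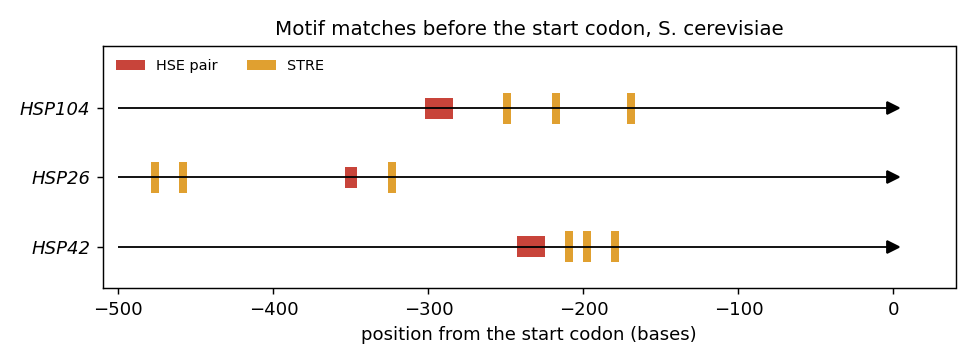
Positions of HSE pair matches (red) and STRE matches (orange) in the 500 bases before the start codon (arrowhead, at 0) of the 3 *S. cerevisiae* genes, in bases. HSP26 has its matches farthest upstream, between -479 and -322, and HSP42 has them between -243 and -178.

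The first comparison asks how transcripts of the 3 chaperones changed when *S. cerevisiae* was moved from its growth optimum to heat shock. All 3 rose by 20-fold or more, HSP26 the most and HSP104 the least. HSP26 became one of the most abundant transcripts of the cell by TPM. In poly(A) RNA of bulk cultures, fewer cells carrying a transcript and less of it per cell cannot be told apart, and values are relative to all counted RNA.

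HSP104, the disaggregase, stood at 112 and 97.4 TPM in control replicates 1 and 2 and at 2297 and 2706 TPM in the heat shock replicates. Both pairs of replicates were within 1.18-fold, and the groups were far apart. The mean was 104.5 ± 10.1 TPM in the control and 2501 ± 289 TPM at 40 °C (SD, n = 2). Its log2 fold change was 4.33 ± 0.17 (SE), or 20.0-fold (edgeR, adjusted p = 3.96e-06).

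HSP26 was at 543 and 215 TPM in the control replicates and at 28778 and 27926 TPM at 40 °C. The control replicates differed 2.52-fold, replicate 1 being the higher, whereas the heat shock replicates differed only 1.03-fold. HSP26 ranked 275 and 559 among 5970 genes with a TPM at 33 °C but 3 in both heat shock libraries, and it took 2.20% and 2.10% of all counted reads there. The log2 fold change was 5.96 ± 0.49 (SE), or 62.0-fold (edgeR, adjusted p = 6.26e-05). Without control replicate 1, the higher of that pair, the log2 value was 6.80.

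HSP42 was the least abundant of the 3, at 66.0 and 45.3 TPM in the control and at 1750 and 1909 TPM after heat shock. Its ranks were 1550 and 2113 in the control pair, and 75 and 71 in the heat-shocked pair. The groups did not overlap and the replicates within each were within 1.46-fold. The log2 fold change was 4.78 ± 0.23 (SE), or 27.5-fold (edgeR, adjusted p = 6.87e-06).

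Of the 5786 genes tested in *S. cerevisiae*, 33.7% were called higher, as given above, and in 44.1% both heat shock libraries were above both controls, so a call by itself was common. By log2 fold change HSP26 ranked 6, HSP42 ranked 16 and HSP104 ranked 24 of 5786. The median log2 fold change of all genes was 0.03. With limma on log2(TPM + 1), where values are not rescaled by TMM, that median was 0.26 and the calls over all genes were 2716 higher and 1256 lower, against 1947 and 1894. The 3 chaperones rose in both analyses.

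The same question was put to *S. kudriavzevii* at temperatures fitted to its lower growth range. Again all 3 transcripts rose, by 101-fold to 717-fold, from control levels far below those of *S. cerevisiae*. The order of the rises was HSP26, HSP42, HSP104, as in *S. cerevisiae*, although HSP26 and HSP42 lay within their standard errors of each other, and the replicates were less tight. The common dispersion, edgeR's squared coefficient of variation between replicates, was 0.0658 against 0.0112 in *S. cerevisiae*.

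HSP104 of *S. kudriavzevii* was at 29.4 and 13.6 TPM in the control replicates and at 2209 and 1502 TPM after heat shock. The control replicates differed 2.17-fold and the heat shock replicates 1.47-fold, and the groups were well separated. The log2 fold change was 6.65 ± 0.70 (SE), or 101-fold (edgeR, adjusted p = 0.00062).

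HSP26 was at 19.6 and 15.0 TPM in the control and at 16880 and 5946 TPM after heat shock. Here it was the heat shock replicates that spread, 2.84-fold apart with replicate 1 the higher, so that HSP26 ranked 4 in one and 18 in the other of 5549 genes. The mean after heat shock was 11413 ± 7731 TPM (SD, n = 2). The log2 fold change was 9.49 ± 0.96 (SE), or 717-fold (edgeR, adjusted p = 0.000544), and it was 8.61 without heat shock replicate 1.

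HSP42 went from 9.28 and 7.84 TPM, ranks 4918 and 4330 of 5549, to 3695 and 3001 TPM, ranks 41 and 59. Its counts were 354 and 296 in the control and 134703 and 123016 at 31 °C. HSP42 thus had a log2 fold change of 8.73 ± 0.73 (SE), a 424-fold rise (edgeR, adjusted p = 0.000458). Among 5490 genes tested, 10.5% were called higher and 13.1% lower, 32.8% had both heat shock libraries above both controls, and by log2 fold change HSP26 ranked 2, HSP42 ranked 4 and HSP104 ranked 7. With library totals in place of TMM factors the median of all genes moved from -0.04 to -0.31 on the log2 scale. The 3 values then were 9.24, 8.49 and 6.36 for HSP26, HSP42 and HSP104, all still called.

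**Figure D2:**
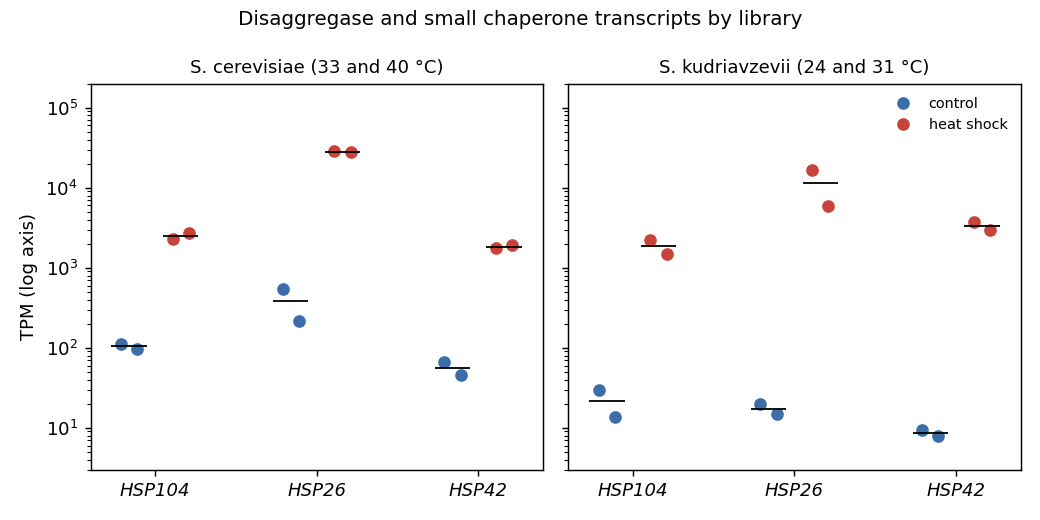
TPM (log axis) of HSP104, HSP26 and HSP42 in each control (blue) and heat shock (red) library of *S. cerevisiae* and *S. kudriavzevii*, 2 replicates per group, with lines at the means. In every gene the heat shock libraries lie above the controls, and the *S. kudriavzevii* controls, between 7.84 and 29.4 TPM, lie below all *S. cerevisiae* controls, between 45.3 and 543 TPM.

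Together the 3 transcripts took 0.101% and 0.0619% of the counted reads in the *S. cerevisiae* controls and 3.18% and 3.21% after heat shock. The corresponding shares in *S. kudriavzevii* were 0.0123% and 0.00834% before and 2.52% and 1.43% after. As a ratio between the species the shares were closer after heat shock than before it, whereas in percentage points they were farther apart.

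Whether the species differed in the response was tested with an interaction term (species by heat shock) fitted to 4724 orthologs in 8 libraries. All 3 genes rose more in *S. kudriavzevii*. The difference in log2 fold change was 2.31 ± 0.44 (SE) for HSP104, 3.51 ± 0.85 for HSP26 and 3.93 ± 0.46 for HSP42 (edgeR, adjusted p = 0.0203, 0.0392 and 0.00641), where 2.98% of orthologs were called in this direction. HSP42 ranked 3, HSP26 ranked 5 and HSP104 ranked 30 of 4724. These calls rest on few libraries, and the number of calls over all orthologs also changed when 1 library was left out. The 3 differences stayed positive under every alternative run, but the adjusted p rose above 0.05 in some: without *S. cerevisiae* heat shock replicate 1 it was 0.122 for HSP104, 0.162 for HSP26 and 0.0522 for HSP42, and without heat shock replicate 2 it was 0.0985, 0.156 and 0.0504. Without *S. cerevisiae* control replicate 1 it was 0.103 for HSP104 and 0.156 for HSP26, without control replicate 2 it was 0.0856 and 0.0684, and without *S. kudriavzevii* heat shock replicate 1 it was 0.0637 and 0.118. HSP26 alone also lost the call without *S. kudriavzevii* control replicate 1 (adjusted p = 0.0521) and with the replicate number as a block (adjusted p = 0.0918). The difference for HSP26 was 2.63 on the log2 scale without *S. cerevisiae* control replicate 1 and also 2.63 without *S. kudriavzevii* heat shock replicate 1.

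The same fit was then read within each condition, a contrast added after the values had been seen and one that shares its libraries with the interaction. In the control libraries the 3 transcripts were all lower in *S. kudriavzevii*. *S. cerevisiae* was 5.25-fold higher for HSP104 (log2 difference of *S. kudriavzevii* minus *S. cerevisiae*, -2.39 ± 0.32 SE, edgeR, adjusted p = 0.00159), 22.5-fold higher for HSP26 (-4.49 ± 0.67, adjusted p = 0.0024) and 6.50-fold higher for HSP42 (-2.70 ± 0.34, adjusted p = 0.00116), with 15.6% of orthologs called lower. Leaving out any 1 library kept all 3 calls. The HSP26 value was -3.60 without *S. cerevisiae* control replicate 1.

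In the heat shock libraries only HSP42 was called. HSP104 differed by -0.08 ± 0.30 on the log2 scale (edgeR, adjusted p = 0.849) and HSP26 by -0.97 ± 0.58 (adjusted p = 0.205), neither called. The HSP26 value was -1.85 without *S. kudriavzevii* heat shock replicate 1 (adjusted p = 0.0779) and -0.43 without replicate 2 (adjusted p = 0.617). HSP42 was 2.34-fold higher in *S. kudriavzevii* (log2 difference 1.23 ± 0.32, adjusted p = 0.0162), where 20.3% of orthologs were called higher and 24.3% lower. The HSP42 call was lost without *S. cerevisiae* heat shock replicate 1 (1.16, adjusted p = 0.122) or replicate 2 (1.30, adjusted p = 0.0915), or without *S. kudriavzevii* heat shock replicate 1 (1.12, adjusted p = 0.0657). The interaction was thus made up mainly of the control side for HSP104 and HSP26, and of both sides for HSP42. For HSP104 and HSP26 the standard errors leave room for differences at heat shock of either sign.

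**Figure D3:**
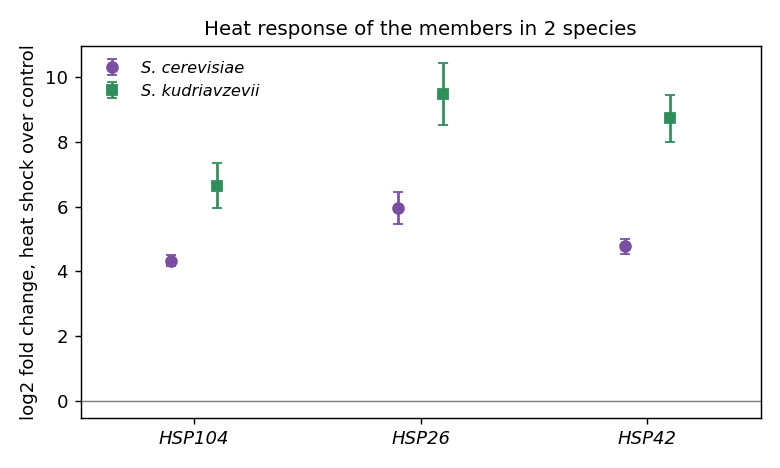
Log2 fold change of heat shock over control with its standard error (edgeR, 2 libraries per group) for the 3 genes in *S. cerevisiae* (circles) and *S. kudriavzevii* (squares). The *S. kudriavzevii* value is the higher in each gene, 6.65 against 4.33 for HSP104, 9.49 against 5.96 for HSP26 and 8.73 against 4.78 for HSP42.

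TPM is a level per length, so the members can be set against each other within a library. In *S. cerevisiae* the ratio of HSP26 to HSP104 in TPM was 4.86 and 2.21 in the controls and 12.5 and 10.3 after heat shock. For HSP42 the ratio to HSP104 was 0.591 and 0.465, then 0.762 and 0.705. In these libraries the ratios to the disaggregase were thus higher after heat shock, for HSP26 by 3.47-fold and for HSP42 by 1.40-fold. The ratio of HSP26 to HSP42 also went from 8.23 and 4.75 to 16.4 and 14.6. These are ratios of relative levels and no molecules were counted.

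In *S. kudriavzevii* HSP26 was about level with HSP104 in the controls, at a ratio of 0.667 and 1.10, and well above it after heat shock, at 7.64 and 3.96. HSP42 was below HSP104 in the controls, at 0.315 and 0.578, and above it after heat shock, at 1.67 and 2.00, which it was not in *S. cerevisiae*. The ratio of HSP26 to HSP42 was 2.12 and 1.91 before and 4.57 and 1.98 after, so the groups overlapped. Of the 6 ratios, 5 did not overlap between conditions. With 2 libraries per group an exact two-sided permutation test cannot go below p = 0.333, the value of those 5. The other ratio had p = 0.667 (exact two-sided permutation test). The ratios of a species share genes and are therefore not independent. How often the ratios of other gene pairs overlap was not tested, so this count is descriptive. Leaving out *S. cerevisiae* control replicate 2 gave 1.23 in place of 1.79 for the log2 change of HSP26 over HSP104, and leaving out control replicate 1 gave 2.36. In *S. kudriavzevii* the change of HSP26 over HSP42 was 0.58, and -0.02 without heat shock replicate 1 or 1.19 without replicate 2.

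The genes known to work with Hsp104 and the small chaperones were read from a list of 25. That list was drawn up when earlier results of the data had been seen, so its counts are descriptive. In *S. cerevisiae*, 14 of 16 chaperones and sorting factors rose, 1 fell and 1 was not called. Calls were common there, as 33.7% of all genes rose and 32.7% fell. Their median log2 fold change was 0.03, against 2.28 for the 16. In *S. kudriavzevii* 15 of the 16 were paired, of which 11 rose and none fell, where 10.5% of all genes rose and 13.1% fell. The median of the 15 was 4.46, against -0.04 for all genes. CUR1 was the one not paired.

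The Hsp70s deliver substrates to Hsp104. SSA4, the stress-inducible one, went from 27.5 and 25.0 TPM to 3752 and 4537 TPM at 40 °C in *S. cerevisiae*. In *S. kudriavzevii* SSA4 went from 7.53 and 5.37 TPM up to 7710 and 4736 TPM. It had the largest log2 fold change of all genes tested in both species, 7.05 ± 0.19 and 10.05 ± 0.92 (SE; edgeR, adjusted p = 3.96e-06 and 0.000458). SSA3 rose by 4.61 and 5.89 on the log2 scale, SSA1 by 3.19 and 5.93, and SSA2, the constitutive form, by 1.92 and 2.28, in *S. cerevisiae* and *S. kudriavzevii* in that order. SSA1 and SSA2 are near-identical in sequence, and reads that fit both can be lost or split, so their values are uncertain. In *S. kudriavzevii* SSA2 lost its call without control replicate 1 (adjusted p = 0.0942), heat shock replicate 1 (0.354) or heat shock replicate 2 (0.200).

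J-proteins bring substrates and stimulate the Hsp70 ATPase. SIS1 rose by 2.76 and 4.46 on the log2 scale in the species taken in the same order, YDJ1 by 1.43 and 2.57, and APJ1 by 1.93 and 2.24, the last not called with limma on log2(TPM + 0.1) (2.19, adjusted p = 0.0672). YDJ1 was not called in *S. kudriavzevii* without heat shock replicate 1 (adjusted p = 0.0722). CAJ1 had values of 0.27 and 0.58, the first called (edgeR, adjusted p = 0.0246) and the second not (0.237), and the first was not called with DESeq2 (0.0598) or without control replicate 2, heat shock replicate 1 or heat shock replicate 2 (edgeR, 0.0534, 0.136 and 0.233).

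Among the nucleotide exchange factors of Hsp70, the Hsp110 gene SSE2 rose by 3.80 and 6.19 and FES1 by 2.34 and 4.79. SSE1, the more abundant Hsp110, rose by 2.01 in *S. cerevisiae*, and in *S. kudriavzevii* its value of 1.77 just missed the threshold (edgeR, adjusted p = 0.0502). SNL1, an exchange factor of the endoplasmic reticulum membrane, fell by 0.98 in *S. cerevisiae* and had a value of -1.08 in *S. kudriavzevii* that was not called (adjusted p = 0.0677). The exchange factors were therefore not uniform in direction.

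Btn2 and Cur1 sort misfolded proteins and are known to act with Hsp42. BTN2 went from 35.8 and 42.0 TPM to 1117 and 1439 TPM in *S. cerevisiae*, and in *S. kudriavzevii* from 18.0 and 12.5 up to 3399 and 2992 TPM, with log2 fold changes of 4.79 ± 0.17 and 7.87 ± 0.69 (SE). CUR1 rose by 2.22 in *S. cerevisiae*. HSP78, the mitochondrial relative of Hsp104, rose by 3.80 and 6.17, whereas MCX1, a mitochondrial AAA+ unfoldase of the ClpX family, had values of -0.15 and 0.26 and was called in neither species.

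The list also holds 6 proteins whose prion forms depend on Hsp104. None of the 6 genes was called higher in either species, where 33.7% of all genes were in *S. cerevisiae* and 10.5% in *S. kudriavzevii*. In *S. cerevisiae* 3 fell, against 32.7% of all genes, so neither count stands far from the background of so short a list. The 3 had log2 values of -1.21 for SUP35 (translation termination factor), -0.95 for SWI1 (chromatin remodelling) and -0.37 for CYC8 (corepressor), and RNQ1, URE2 and MOT3 had values between -0.19 and -0.03. CYC8 was not called on the TPM scale (limma on log2(TPM + 1), -0.11, adjusted p = 0.413) or without heat shock replicate 1 (edgeR, 0.0902) or replicate 2 (0.0842). In *S. kudriavzevii* the 6 values lay between -0.81 and 0.20 and none was called.

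Of the regulators, HSF1 rose by 0.89 in *S. cerevisiae*, from 29.2 and 29.3 TPM to 64.3 and 64.7 TPM, and had 0.69 in *S. kudriavzevii*, not called (edgeR, adjusted p = 0.193). MSN2 had 0.18 and 0.60 and MSN4 0.22 and -0.26, none called. With limma on log2(TPM + 1), in which the median of all genes was itself 0.26, all 3 regulators were called higher in *S. cerevisiae*.

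**Figure D4:**
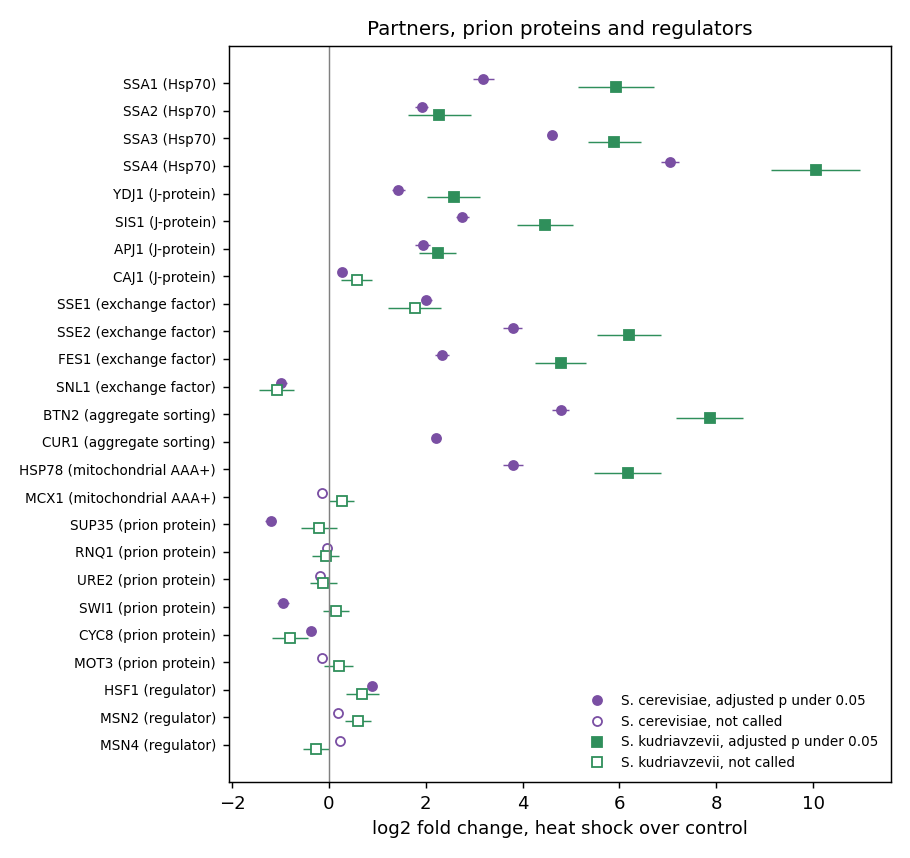
Log2 fold change of heat shock over control with its standard error (edgeR) for the 25 listed genes in *S. cerevisiae* (circles) and *S. kudriavzevii* (squares), filled where the adjusted p was under 0.05 and open where it was not. Most Hsp70s, J-proteins, exchange factors and sorting factors lie to the right of 0, up to 10.05 for SSA4, and the prion protein genes lie at or below 0.20.

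Likeness of pattern was measured over the 4 libraries of a species, as the root mean square difference of log2 CPM after each gene was centred on its own control mean. In *S. cerevisiae* the genes nearest to HSP104 were HSP82 (0.106), CTT1 (0.130), RTN2 (0.195), MSC1 (0.211) and SSA3 (0.237). HSP82 encodes the inducible Hsp90 and CTT1 the cytosolic catalase. Nearest to HSP26 were EGO4 (0.199), RGI1 (0.327), HSP30 (0.404), ALD3 (0.429) and HSP12 (0.595). Nearest to HSP42 were RTC3 (0.0874), FMP16 (0.138), CPP3 (0.221), YCL048W-A (0.269) and DDR2 (0.271). No gene stood in more than 1 of these lists. HSP104 and HSP42 were 0.364 apart, and HSP26 was 1.33 from HSP104 and 0.971 from HSP42.

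In *S. kudriavzevii* the nearest to HSP104 were SSE2 (0.332), HSP78 (0.378), HSP82 (0.413), SSA3 (0.532) and SSA1 (0.626), all chaperone genes. The small chaperones were close to each other, at 0.596. HSP26 and HSP42 shared EGO4 (0.235 and 0.493), SSA4 (0.572 and 0.924), BTN2 (1.13 and 0.626) and HSP12 (1.25 and 1.16) among their nearest genes. HSP104 was 1.94 from HSP26 and 1.51 from HSP42. HSP82 and SSA3 were near HSP104, and EGO4 and HSP12 near HSP26, in both species. All libraries of a species enter each of these distances, which are given without a test. Since each gene is centred on its control mean, a distance depends largely on how alike the rises are. The lists thus largely restate the ranking by log2 fold change. In *S. kudriavzevii* HSP26, HSP42 and HSP104 ranked 2, 4 and 7. SSA4 and BTN2 ranked 1 and 6, and SSE2, HSP78, SSA1 and SSA3 ranked 9, 10, 11 and 12.

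The genes next to the 3 chaperones on the chromosome were also read, and none of the 5 that could be tested was called higher, a count too small to set against the 33.7% of all genes. ISA1, which ends 467 bases before HSP104, had a log2 value of 0.23 (edgeR, adjusted p = 0.0731), and PAU17, 3397 bases beyond it, had 0.30 (adjusted p = 0.522). YBR071W, upstream of HSP26, had 0.07 (adjusted p = 0.586). YBR072C-A, on the other strand 185 bases after HSP26, had 4 and 4 counts in the controls and 9 and 10 after heat shock and was too low to test, beside up to 494913 counts for HSP26. Reads were counted without strand, but the coding sequences do not overlap. YDR170W-A, upstream of HSP42, had -0.13 (adjusted p = 0.276), and SUP35, which starts 575 bases after HSP42 on the same strand, had -1.21 (adjusted p = 0.000105).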

How the data were processed

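Poly(A) RNA was sequenced from 3 yeast species, and 8 libraries of *S. cerevisiae* and *S. kudriavzevii* were used here. Per the labels, the authors trimmed reads with Trim Galore 0.6.10, aligned them with STAR 2.7.10b to R64 or Skud-ZP591 and used HTSeq 2.0.2 to count reads over coding sequence without strand, and the counts were deposited as whole numbers without normalization. The authors computed TPM from counts and gene lengths. The deposited TPM column stacks all libraries and was therefore read as a score. TPM recomputed from the counts and lengths differed from the deposited values by at most 7.3e-12. Reads on no gene, between 4.01% and 6.60% per library, were left out.

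Counts were tested in R 4.3.3 with edgeR 4.0.16 (TMM, filterByExpr, glmQLFit and glmQLFTest), separately by species, with Benjamini-Hochberg adjustment over all genes. The standard error is the log2 fold change divided by the square root of F. DESeq2 1.42.0, limma 3.58.1 on log2(TPM + 1) and log2(TPM + 0.1), other scalings, no filter, a replicate block and leaving out each library were alternatives. The fits were tested on simulated counts. Log2 CPM used a prior count of 2. Python 3.11.15 with matplotlib 3.10.9, pandas 2.3.3 and SciPy 1.17.1 served for tables and figures.

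Of 5549 *S. kudriavzevii* genes, 5245 were paired by order and length with protein-coding entries of a RefSeq table of another *S. kudriavzevii* assembly, used for names only. Of these pairs, 4813 carried the symbol of an *S. cerevisiae* gene, and 4727 were kept as orthologs. Names inferred in this way are an assumption.

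The named genes were the 3 members, every gene of the partner list, the 5 genes nearest in pattern to each member and the chromosome neighbours. The members and lists were chosen with earlier results of these data known. Replicates are described as biological, with 2 per group. The edgeR p-values rest on the spread between replicates, with the dispersion of each gene drawn towards that of the other genes. In the fits of both species together, each gene had 1 dispersion for all 8 libraries. The common dispersion was 0.0355 there, against 0.0112 in *S. cerevisiae* and 0.0658 in *S. kudriavzevii* fitted alone. The tests between species thus take the variability as equal although it was not. Sequences are from RefSeq, R64.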

Additional observations from a re-analysis of the deposited data

Results flagged for a closer look

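The response to heat shock differed between *S. kudriavzevii* and *S. cerevisiae* in each of the 3 chaperone genes, by the test of the interaction of species and heat shock. The difference on the log2 scale was 2.31 for HSP104, 3.51 for HSP26 and 3.93 for HSP42, higher in *S. kudriavzevii* (edgeR, adjusted p = 0.0203, 0.0392 and 0.00641). These calls did not hold in every alternative, as given below. The *S. kudriavzevii* libraries were also the more variable, and the part of that variability in the difference was not tested. The temperatures and the genome assemblies differ along with the species and cannot be told apart from it.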

How the results depend on the processing

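The rises of the 3 genes stayed called in both species in each of 11 alternatives, with log2 fold changes of 4.17 to 4.58 (HSP104), 5.41 to 6.80 (HSP26) and 4.50 to 5.09 (HSP42) in *S. cerevisiae*. The *S. kudriavzevii* ranges were 6.36 to 6.87, 8.61 to 10.03 and 8.45 to 9.03. The highest adjusted p among these was 0.0151. The differences at control kept all 3 calls in 10 alternatives.

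The interaction was less stable. With 1 library left out, calls on the 3 genes were lost in some fits. The number of calls over all orthologs changed in these fits as well, so the lost calls are not particular to the 3 genes. The differences ran from 2.05 to 2.57 (HSP104), from 2.63 to 4.06 (HSP26) and from 3.57 to 4.33 (HSP42). With the replicate block the HSP26 difference was 3.19 and no longer called. The fit without 1 library has fewer samples, and the cause of each lost call was not tested. At heat shock, with 1 library left out, HSP42 ran from 1.12 to 1.33 and lost its call in some fits. The number of calls over all orthologs changed there too. HSP26 ran from -1.85 to -0.43, never called, and HSP104 from -0.34 to 0.14. The sign of HSP104 changed, at 0.05 without *S. cerevisiae* heat shock replicate 2 and at 0.14 without *S. kudriavzevii* heat shock replicate 2. The *S. kudriavzevii* ratio of HSP26 to HSP42 ran from -0.020 to 1.19 on the log2 scale, the sign turning without heat shock replicate 1.

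In the *S. kudriavzevii* list 1 gene was called lower, against 0, with the replicate block, with DESeq2 and without either control replicate. Over all orthologs DESeq2 called 344 interactions higher in *S. kudriavzevii* and 535 lower, against 141 and 313, library totals called 81 and 263, and the replicate block 112 and 185. Over all *S. kudriavzevii* genes library totals called 275 higher and 641 lower, limma on log2(TPM + 1) 223 and 408 and on log2(TPM + 0.1) 201 and 363, against 575 and 717. Deviations of same-numbered replicates correlated at 0.57 (*S. cerevisiae*) and 0.05 (*S. kudriavzevii*) over 2 pairs each. In *S. cerevisiae* same-numbered replicates thus tended to deviate together, which the main fits do not take into account. So few pairs cannot settle whether the numbers pair the samples. With the replicate block 2210 *S. cerevisiae* genes were called higher and 2092 lower, against 1947 and 1894. In *S. kudriavzevii* 681 and 886 were called, against 575 and 717. The replicate block changed no call on the rises of the 3 genes and no other call on their interaction, and it was not run on the species contrasts within a condition. With 2 libraries per group, the spread between replicates rather than depth limits precision, also at the lowest member counts, 296 to 427 for HSP26 and HSP42 in the *S. kudriavzevii* controls.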
